A study of Oryza sativa with 17 samples.

Results

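The PIP (plasma membrane intrinsic protein) and TIP (tonoplast intrinsic protein) aquaporin genes of rice were followed in seeds germinating in the cold. They were chosen by gene identifier from a list of 10 loci, all of which were present among the 23223 genes of the deposited table. The table annotates 9 of the 10 loci with water channel activity (6 PIP and 3 TIP genes). The tenth, LOC_Os10g35520, which had been listed as a TIP, is annotated with hydrolase activity and no water channel term. Its values are given, and it was left out of the counts of aquaporins. OsTIP3-1 (LOC_Os10g35050), the other seed TIP3 gene that carries the water channel term, is described beside OsTIP3-2.

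The seeds came from WR04-6, a weedy rice, and QSZ, a cultivated indica rice, and both accessions were kept at 10 °C. Seeds in the study's germination assay were oven heated first to break dormancy, and the RNA was taken from germinating seeds, not from dissected embryos or endosperm. Each accession was sampled at 10, 12 and 14 DAI (days after imbibition). A group had 3 libraries, described as biological replications, except QSZ at 10 DAI, which had 2 (replicates 2 and 3). Accession and progress of germination cannot be told apart at a fixed DAI in this design.

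Aquaporins are membrane channels that let water, and in some members other small neutral solutes, cross a lipid bilayer. PIPs sit mainly in the plasma membrane, where PIP1 members of several plants need PIP2 partners to reach the cell surface, and TIPs sit mainly in the vacuolar membrane. TIP3 proteins mark the protein storage vacuoles of seeds in Arabidopsis and other plants, whereas TIP1 proteins are typical of the large vacuoles of growing cells.

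The total estimated counts ranged from 51209499 to 72494532 in the 9 WR04-6 libraries and from 33280479 to 68909607 in the 8 QSZ libraries. The lowest 2 totals were those of QSZ at 10 DAI, 33280479 and 42313486. All 7 seed markers (glutelins, oleosins, Emp1 and RAB21) were detected in each library. Their summed FPKM (fragments per kilobase of transcript and per unit of sequencing depth) was 2362 to 5754 in WR04-6 and 8236 to 23270 in QSZ, without overlap. The summed FPKM of 5 leaf markers was 25.6 to 184 in WR04-6 and 2.30 to 103 in QSZ. The leaf marker CAB1R alone was at 23.6 to 177 and 0.282 to 83.9. A DEG is a gene with an adjusted p under 0.05 over the 21949 genes tested in edgeR's quasi-likelihood test and a log2 fold change of at least 1 in either direction. The median log2 fold change of all genes tested, WR04-6 vs. QSZ, was 0.03, 0.06 and 0.08 at 10, 12 and 14 DAI after TMM scaling. It was 0.22, 0.44 and 0.38 with library totals alone. The share of DEGs higher in WR04-6 moved with it, from 51.5%, 55.3% and 49.1% to 63.7%, 72.4% and 66.7%. FPKM values carry no TMM scaling, so a gene can have non-overlapping FPKM values and a fitted fold change near 0.

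Among the 9 aquaporins, 8 passed the filter for testing, and OsPIP2-2 and OsPIP2-7 were the only members under 5 FPKM in every library. In WR04-6 vs. QSZ, 2 of the 8 tested were DEGs at 10 DAI, against 23.6% of all genes tested. There were 4 at 12 DAI, against 29.5%, and 4 at 14 DAI, against 21.3%. OsPIP1-2 and OsTIP3-2 were down-regulated at all 3 times, OsTIP1-1 was down-regulated at 12 and 14 DAI, and OsPIP1-3 was up-regulated at 12 and 14 DAI. The median log2 fold change of the 8 tested members was −0.44, 0.05 and −0.53 at the 3 times. Separation by FPKM, with each library of one accession above each of the other, was seen at 10 DAI for 4 members lower in WR04-6, against 21.7% of all genes, and for 0 higher, against 41.3%. At 12 DAI, 4 members were higher in this way, against 50.0% of all genes, and 3 were lower, against 16.1%. At 14 DAI, 2 were higher, against 43.1%, and 3 were lower, against 15.1%.

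**Figure D1:**
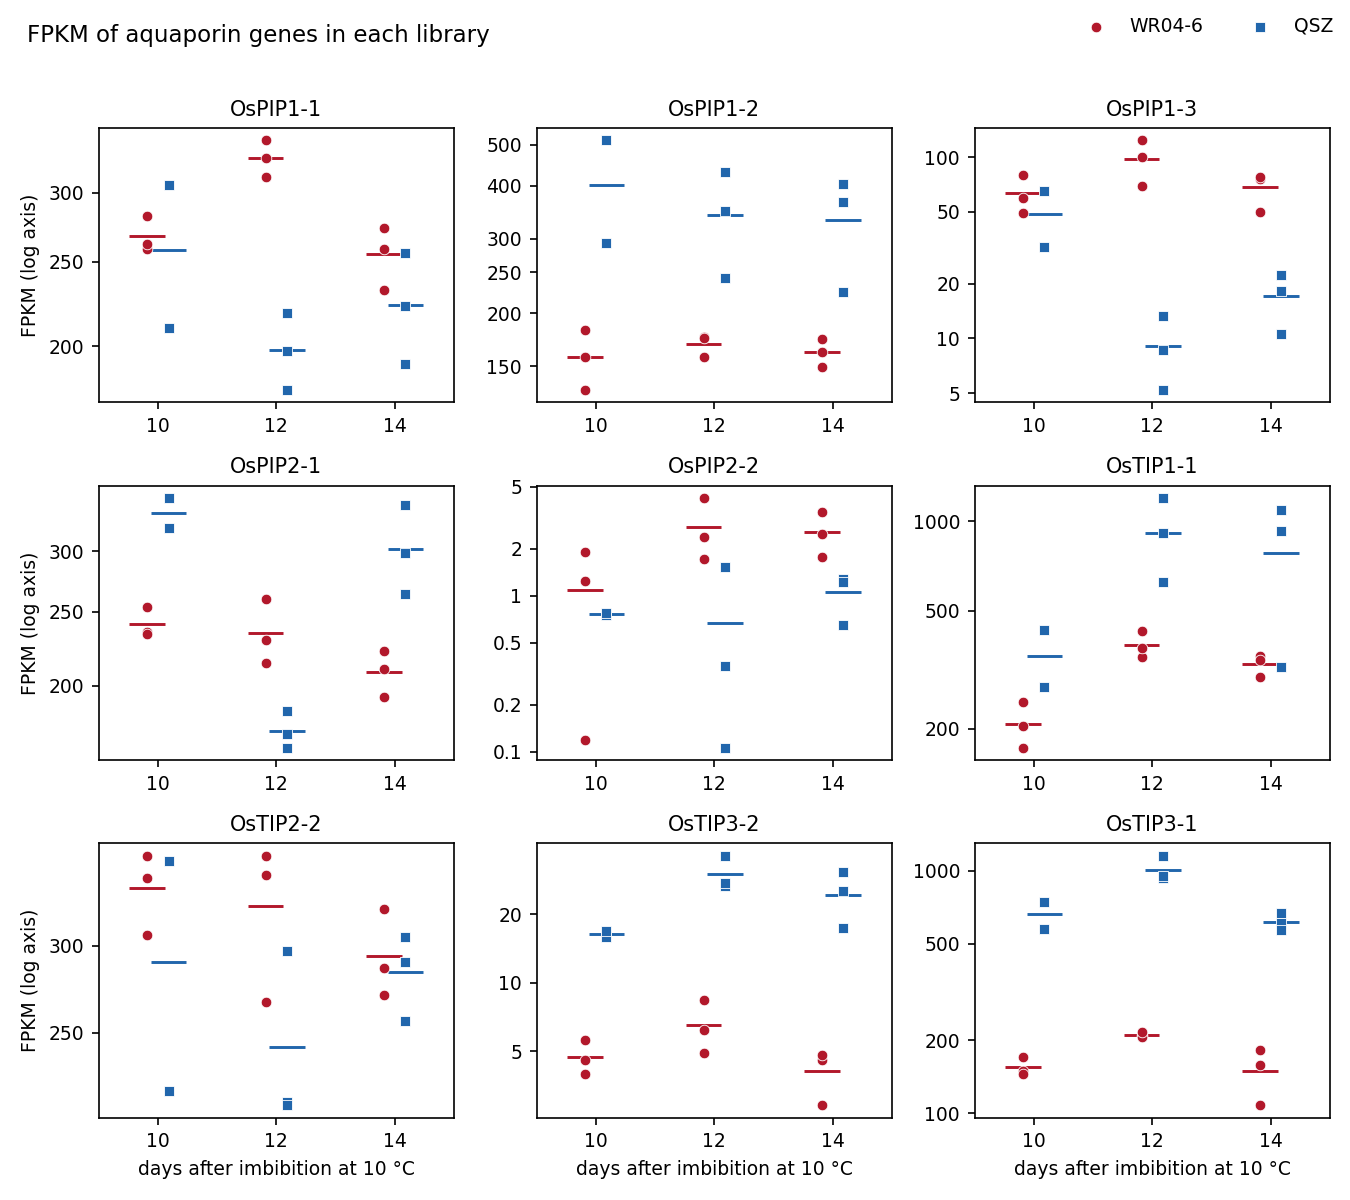
FPKM (log axis, scaled separately in each panel) of 8 listed aquaporin genes and OsTIP3-1 against days after imbibition at 10 °C, with 1 point per library (circles WR04-6, squares QSZ) and a line at each group mean. The WR04-6 points of OsPIP1-2, OsTIP3-2 and OsTIP3-1 lie below the QSZ points at 10, 12 and 14 DAI, and those of OsPIP1-3 lie above them at 12 and 14 DAI.

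The TIP3 genes were both lower in WR04-6 in each library. OsTIP3-2 (LOC_Os04g44570, chromosome 4, 26380265 to 26381607, MSU v7.0) is an α-TIP type channel of the seed storage vacuole. Its FPKM in WR04-6 was 4.57, 5.6 and 3.98 (10 DAI), 6.2, 4.92 and 8.4 (12 DAI) and 4.57, 2.88 and 4.81 (14 DAI). In QSZ it was 15.9 and 16.8 (10 DAI), 26.5, 36.2 and 27.5 (12 DAI) and 25.2, 30.7 and 17.4 (14 DAI). The lowest QSZ library stood above the highest WR04-6 library across all times, so the accessions did not overlap. The log2 fold changes in edgeR were −2.03 ± 0.28 (SE, adjusted p = 7.4e-05), −2.58 ± 0.27 (4.2e-06) and −2.86 ± 0.27 (2.1e-06). The call held at each time under all 9 other settings and without any 1 library.

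OsTIP3-1 (chromosome 10, 18701132 to 18702561) belongs to the same seed class and was expressed far more strongly. WR04-6 libraries had 171, 149 and 146 FPKM (10 DAI), 210.4, 206 and 215 (12 DAI) and 158, 108 and 182 (14 DAI). QSZ libraries had 577 and 746 FPKM (10 DAI), 931, 949 and 1151 (12 DAI) and 611, 569 and 668 (14 DAI). The highest WR04-6 value was less than the lowest QSZ value in FPKM. OsTIP3-1 had log2 fold changes of −2.32 ± 0.20, −2.64 ± 0.19 and −2.33 ± 0.19, with edgeR adjusted p of 1.0e-06, 1.1e-07 and 4.0e-07. The FPKM ratio of OsTIP3-1 to OsTIP3-2 was 25.6 to 41.9 in WR04-6 and 18.5 to 44.3 in QSZ, so the balance within the pair overlapped between accessions.

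The seed markers moved in the same direction as the TIP3 pair. Of the 7, 4, 6 and 7 were down-regulated in WR04-6 at 10, 12 and 14 DAI, against 11.4%, 13.2% and 10.9% of all genes tested. None was up-regulated, against 12.1%, 16.3% and 10.5%. The 18 kDa oleosin, an oil body coat protein, had log2 fold changes of −2.66, −4.32 and −4.29. Those of GluA1, a glutelin storage protein, were −1.13, −2.21 and −2.43, with only the last 2 called. Their part in the TIP3 result was not tested. In RNA of whole seeds, fewer storage cells and less TIP3 RNA per cell cannot be told apart.

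The genes with the profile closest to each TIP3 gene were ranked by the root mean square difference of gene-centred log2(FPKM + 0.1) over the 17 libraries, among 21948 genes. For OsTIP3-1 they were LOC_Os01g46580, annotated as subunit 2A of the actin-nucleating ARP2/3 complex, LOC_Os02g58150 and LOC_Os04g23580, at 0.28, 0.28 and 0.29. LOC_Os04g23580 was also the closest to OsTIP3-2, at 0.25, followed by LOC_Os04g31710 and LOC_Os05g49300, both at 0.30. The TIP3 genes were ranked 9 in each other's list, at 0.33. Of the 3 seed markers placed in the same ranking, the oleosin of 16 kDa ranked 349 for OsTIP3-1 and 133 for OsTIP3-2, the oleosin of 18 kDa 2304 and 1233, and Emp1 4034 and 2740. The ranks of the glutelins and RAB21 were not taken. These ranks are descriptions, since the compared genes share the same 17 libraries and accession groups.

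OsTIP1-1 (LOC_Os03g05290, chromosome 3, 2562732 to 2564648), a TIP of the γ-TIP type found in the vacuole of expanding cells, was also lower in WR04-6. Its FPKM in WR04-6 was 246, 205 and 173 (10 DAI), 348, 426 and 375 (12 DAI) and 351, 339.9 and 298 (14 DAI). QSZ had 276 and 429 (10 DAI), 625, 1195 and 911 (12 DAI) and 1094, 924 and 322 (14 DAI). The accessions did not overlap at 10 and 12 DAI, and at 14 DAI replicate 3 of QSZ fell within the WR04-6 range while the other two lay far above it. The log2 fold change was −0.99 ± 0.38 (edgeR, adjusted p = 0.051) at 10 DAI, which missed both thresholds, −1.63 ± 0.36 (0.0018) at 12 DAI and −1.54 ± 0.35 (0.0035) at 14 DAI. Median-ratio scaling and DESeq2 called the difference at 10 DAI (log2 fold change −1.02 in both). Quantile normalisation in limma ended the calls at 12 and 14 DAI (−0.58, adjusted p = 0.105, and −0.57, 0.123).

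OsTIP2-2 (LOC_Os06g22960, chromosome 6, 13407319 to 13408859), a δ-TIP type channel, was the listed TIP with no DEG call at any time. WR04-6 had 346, 307 and 362 FPKM (10 DAI), 362, 267 and 348 (12 DAI) and 286, 324 and 271 (14 DAI). QSZ had 221 and 358 FPKM (10 DAI), 216, 297 and 215 (12 DAI) and 289.7, 306 and 256 (14 DAI). The accessions overlapped at each time. The log2 fold changes were 0.01 ± 0.20, 0.05 ± 0.18 and −0.24 ± 0.18 (edgeR, adjusted p = 0.98, 0.83 and 0.31). The sign at 10 and 14 DAI changed with the scaling.

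**Figure D2:**
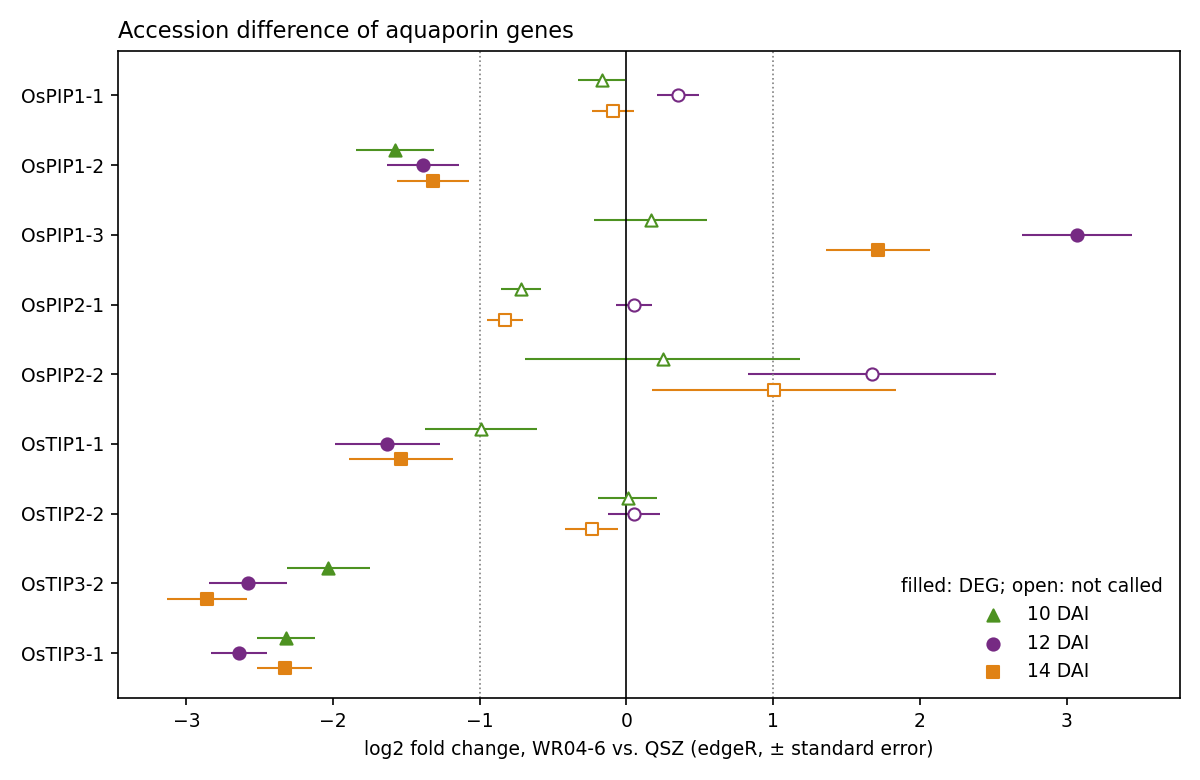
Log2 fold change, WR04-6 vs. QSZ (x axis, edgeR, bars ± standard error), of 8 listed aquaporin genes and OsTIP3-1 at 10, 12 and 14 DAI. Filled symbols are DEGs, open symbols are not, and dotted lines mark log2 fold changes of −1 and 1: both TIP3 genes lie near or below −2 at each time, and OsPIP1-3 moves from 0.17 at 10 DAI to 3.07 at 12 DAI.

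Among the PIP1 genes, OsPIP1-3 and OsPIP1-2 differed in opposite directions. OsPIP1-3 (LOC_Os02g57720, chromosome 2, 35349673 to 35351454), also known as RWC3, is a PIP1 gene whose product has been linked to water stress in rice. WR04-6 had 59.6, 80.1 and 49.2 FPKM (10 DAI), 69.2, 100.3 and 123 (12 DAI) and 76.1, 78.1 and 49.7 (14 DAI). QSZ had 31.8 and 64.8 FPKM (10 DAI), 13.4, 8.58 and 5.2 (12 DAI) and 10.6, 22.5 and 18.2 (14 DAI). The accessions overlapped at 10 DAI, and at 12 and 14 DAI every WR04-6 library stood above every QSZ library. The log2 fold change was 0.17 ± 0.39 (edgeR, adjusted p = 0.76) at 10 DAI, 3.07 ± 0.37 (1.7e-05) at 12 DAI and 1.71 ± 0.35 (0.0017) at 14 DAI. The test of the accession by time interaction passed (adjusted p = 0.016), as it did for 8.98% of all genes tested and for 2 of the members. Both later calls held under all 9 other settings and without any 1 library.

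OsPIP1-2 (LOC_Os04g47220, chromosome 4, 28046537 to 28048542) was down-regulated in WR04-6 at each time. WR04-6 had 183, 157 and 132 FPKM (10 DAI), 176, 158 and 175 (12 DAI) and 149, 174 and 162 (14 DAI). QSZ had 294 and 511 FPKM (10 DAI), 242, 432 and 349 (12 DAI) and 366, 404 and 224 (14 DAI). The WR04-6 libraries were close together and below the QSZ libraries, which spread widely at each time. In the test its log2 fold changes were −1.58 ± 0.27, −1.39 ± 0.25 and −1.32 ± 0.25, with edgeR adjusted p of 0.00035, 0.00041 and 0.00078. In limma on log2(FPKM + 0.1) the values at 12 and 14 DAI were −0.97 and −0.99, so the fold threshold was missed while the adjusted p stayed at 0.0051 and 0.0054. After quantile normalisation in limma OsPIP1-2 was not called at any time.

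OsPIP1-1 (LOC_Os02g44630, chromosome 2, 27044319 to 27047453) was the most strongly expressed PIP of WR04-6 at each time. WR04-6 had 258, 282 and 262 FPKM (10 DAI), 313, 344 and 329 (12 DAI) and 274, 259 and 232 (14 DAI). QSZ had 209.9 and 306 FPKM (10 DAI), 178, 219 and 198 (12 DAI) and 223, 256 and 191 (14 DAI). The accessions overlapped at 10 and 14 DAI, and at 12 DAI the WR04-6 libraries were higher without overlap. Fitted log2 fold changes were −0.17 ± 0.16, 0.35 ± 0.14 and −0.09 ± 0.14 (edgeR, adjusted p = 0.42, 0.056 and 0.63), and the sign at 10 and 14 DAI changed with the scaling.

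The PIP1 mixture differed between the accessions. OsPIP1-2 made up 26.2% to 36.5% of the summed PIP1 FPKM in the 9 WR04-6 libraries and 51.7% to 65.5% in the 8 QSZ libraries. OsPIP1-3 made up 11.1% to 19.7% in WR04-6 and 0.94% to 7.34% in QSZ. Neither share overlapped between the accessions, although the FPKM of OsPIP1-3 itself overlapped at 10 DAI. Both shares are built from genes already described and were not tested.

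Among the listed PIP2 genes, which encode the PIPs with strong water transport on their own in expression assays, only OsPIP2-1 was highly expressed. OsPIP2-1 (LOC_Os07g26690, chromosome 7, 15406442 to 15409801) had 253, 235 and 234 FPKM in WR04-6 (10 DAI), 214, 260.0 and 229.6 (12 DAI) and 193, 222 and 210.2 (14 DAI). QSZ had 322 and 352 FPKM (10 DAI), 185, 166 and 173 (12 DAI) and 345, 263 and 299 (14 DAI). WR04-6 was lower without overlap at 10 and 14 DAI and higher without overlap at 12 DAI, and 12 DAI was the time at which QSZ was lowest. The log2 fold changes were −0.72 ± 0.14, 0.05 ± 0.12 and −0.83 ± 0.12 (edgeR, adjusted p = 0.00080, 0.76 and 0.00014), so the first and last passed on p and not on fold. The accession by time interaction passed (adjusted p = 0.018), but not without replicate 2 of WR04-6 at 12 DAI (0.060).

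OsPIP2-2 (LOC_Os02g41860, chromosome 2, 25162543 to 25166617) was low in both accessions. WR04-6 had 1.25, 1.9 and 0.119 FPKM (10 DAI), 1.72, 4.22 and 2.38 (12 DAI) and 3.42, 2.5 and 1.77 (14 DAI). QSZ had 0.752 and 0.776 FPKM (10 DAI), 0.106, 1.54 and 0.354 (12 DAI) and 0.651, 1.28 and 1.22 (14 DAI). At 12 and 14 DAI the WR04-6 libraries were higher without overlap, and at 10 DAI the groups overlapped. For OsPIP2-2 the log2 fold changes were 0.25 ± 0.94, 1.68 ± 0.84 and 1.0 ± 0.83 (edgeR, adjusted p = 0.85, 0.12 and 0.36). The value at 12 DAI was called without replicate 2 of QSZ at that time (3.13, adjusted p = 0.014). With all libraries, limma on log2(FPKM + 0.1) also called OsPIP2-2 at 12 DAI. OsPIP2-7 (LOC_Os09g36930, chromosome 9, 21310129 to 21311548) was listed at 0 in 16 of the 17 libraries and at 0.0702 FPKM in replicate 2 of WR04-6 at 10 DAI, and it was not tested.

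LOC_Os10g35520 (chromosome 10, 18998799 to 19001037), the listed locus that is no aquaporin by its annotation, was expressed at 5.43 to 6.53 FPKM in WR04-6 and 1.21 to 4.51 in QSZ. The accessions did not overlap. Its log2 fold changes were 1.4 ± 0.33, 0.47 ± 0.28 and 1.35 ± 0.29 (edgeR, adjusted p = 0.0037, 0.18 and 0.0020), a direction opposite to that of both TIP3 genes at 10 and 14 DAI. The call at 10 DAI was lost without replicate 2 of QSZ at 10 DAI (adjusted p = 0.058).

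The FPKM levels of the 9 listed aquaporins were also put in order within each group. In WR04-6 at 10 DAI the highest mean was that of OsTIP2-2, at 338 ± 28.3 (SD, n = 3), followed by OsPIP1-1 at 268 ± 12.8 and OsPIP2-1 at 241 ± 11. OsPIP2-1 overlapped OsTIP1-1, and OsTIP1-1 overlapped OsPIP1-2, so these neighbours were not separated. In WR04-6 at 12 DAI OsTIP1-1 was first, at 383 ± 39.9 (SD, n = 3), without overlap with OsPIP1-1. It did overlap OsTIP2-2, whose highest library was at 362 FPKM, against 348 for the lowest of OsTIP1-1. In QSZ OsTIP1-1 led at 12 DAI, at 911 ± 285 (SD, n = 3), without overlap with the next member, and at 14 DAI, at 780.3 ± 406, with overlap. OsTIP3-1, which is outside the listed members, had a higher mean than OsTIP1-1 in QSZ at 12 DAI, at 1010.0 ± 122, with overlap, and stood above every listed member in QSZ at 10 DAI, at 661 ± 119. In QSZ at 10 DAI the members ranked 1 to 4 each overlapped the next, and OsPIP1-1, ranked 5, did not overlap OsPIP1-3. OsTIP3-2 ranked below OsPIP1-3 in the 3 WR04-6 groups and above it in QSZ at 12 and 14 DAI, where only the order at 12 DAI was without overlap.

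Each time point was also compared with the others within an accession, over the 8 tested members. From 10 to 12 DAI in QSZ, 3 members were DEGs, against 13.3% of all genes tested. OsPIP1-3 fell by 2.28 ± 0.38 on the log2 scale (edgeR, adjusted p = 0.0011), OsTIP1-1 rose by 1.52 ± 0.41 (0.014) and OsTIP3-2 rose by 1.0 ± 0.29 (0.020). The last 2 calls were lost without 1 of the shallow libraries: without replicate 2 of QSZ at 10 DAI, OsTIP1-1 had 1.3 (adjusted p = 0.11) and OsTIP3-2 1.04 (0.084). OsTIP3-2 was also lost without replicate 3 of QSZ at 10 DAI (0.078) and without replicate 2 of QSZ at 12 DAI (0.064).

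From 10 to 14 DAI in QSZ, 1 member was a DEG, OsPIP1-3, which fell by 1.46 ± 0.38 (edgeR, adjusted p = 0.042), against 1.62% of all genes. That call was lost in 12 of the 17 fits that left out 1 library, with the highest adjusted p without replicate 3 of QSZ at 10 DAI (0.29), and with the replicate block (adjusted p = 0.082). Without replicate 3 of QSZ at 14 DAI, which had the low OsTIP1-1 value, OsTIP1-1 was called as higher than at 10 DAI (1.57, adjusted p = 0.014), and with all libraries it was at 1.20 (0.093). From 12 to 14 DAI in QSZ edgeR, limma and DESeq2 each called 0 members, against 0.282% of all genes in edgeR, with 2 members at an unadjusted p under 0.05. OsPIP2-1 passed on p alone in that step (0.69 ± 0.12, adjusted p = 0.037) and from 10 to 12 DAI (−0.82 ± 0.14, 0.0011).

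In WR04-6, edgeR called 0 members in each of the 3 steps, against 0.0273% of all genes from 10 to 12 DAI, 0.688% from 12 to 14 DAI and 0.241% from 10 to 14 DAI. At an unadjusted p under 0.05 there were 1, 2 and 0 members, and limma and DESeq2 also called 0. The unadjusted ones were OsTIP1-1 from 10 to 12 DAI (log2 fold change 0.88 ± 0.35, adjusted p = 0.49), and OsPIP1-1 (−0.38 ± 0.14, 0.28) and OsTIP3-2 (−0.68 ± 0.26, 0.27) from 12 to 14 DAI. Whether the change over time differed between accessions passed the interaction test in 2 members, OsPIP1-3 and OsPIP2-1. For OsTIP1-1 the interaction had an adjusted p of 0.64 and for OsTIP3-2 of 0.31.

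The rest of the family was read from a second list of MIP genes (major intrinsic proteins, the family that holds the aquaporins), of which 19 of 22 loci were in the table and 16 were tested. In WR04-6 vs. QSZ, 3 of the 16 tested were DEGs at 10 DAI (1 higher and 2 lower), against 23.6% of all genes, 9 at 12 DAI (6 higher and 3 lower), against 29.5%, and 4 at 14 DAI (2 higher and 2 lower), against 21.3%. Over both lists, 1, 4 and 3 of 10 PIP genes (9 tested) were up-regulated at 10, 12 and 14 DAI, against 12.1%, 16.3% and 10.5% of all genes, and 1, OsPIP1-2, was down-regulated at each time. Of 10 TIP genes (9 tested), 3, 5 and 4 were down-regulated at 10, 12 and 14 DAI, against 11.4%, 13.2% and 10.9% of all genes, and edgeR called no TIP as up-regulated.

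OsPIP2-4 (LOC_Os07g26630, chromosome 7, 15358960 to 15360495) was a DEG at all 3 times, higher in WR04-6. WR04-6 had 95.3, 189 and 179.9 FPKM (10 DAI), 116, 104 and 159 (12 DAI) and 55.7, 75.1 and 46.7 (14 DAI). QSZ had 9.38 and 20.0 FPKM (10 DAI), 2.94, 0.75 and 0 (12 DAI) and 5.44, 3.74 and 7.23 (14 DAI). The accessions did not overlap at any time, with QSZ nearest to 0 at 12 DAI. Log2 fold changes of OsPIP2-4 were 3.2 ± 0.94, 6.34 ± 0.93 and 3.14 ± 0.80 (edgeR, adjusted p = 0.014, 8.9e-05 and 0.0066). The call at 10 DAI was lost without replicate 2 of QSZ at 10 DAI (adjusted p = 0.12).

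OsPIP2-6 (LOC_Os04g16450, chromosome 4, 8948206 to 8950028) had 33.4, 22.5 and 23.2 FPKM in WR04-6 (10 DAI), 34.1, 39.7 and 30.4 (12 DAI) and 26.7, 32.3 and 37.4 (14 DAI). QSZ had 8.37 and 23.4 FPKM (10 DAI), 3.88, 3.6 and 0.633 (12 DAI) and 5.29, 12.8 and 10.7 (14 DAI). The groups overlapped at 10 DAI, and WR04-6 was higher without overlap at the later times. OsPIP2-6 had log2 fold changes of 0.52 ± 0.54, 3.33 ± 0.53 and 1.47 ± 0.49 (edgeR, adjusted p = 0.47, 0.00016 and 0.028). The call at 14 DAI was lost without replicate 2 or 3 of WR04-6 or replicate 1 or 3 of QSZ at that time (adjusted p up to 0.10). OsPIP2-8 (LOC_Os03g64330) was at 0.928 to 1.27 FPKM in WR04-6 at 12 DAI and at 0 in the 3 QSZ libraries. That is at least 17.4-fold higher, with 12 estimated counts (3 fragments) over the group taken as the floor. At 10 DAI OsPIP2-8 was at 0.208 to 0.336 FPKM in WR04-6 and 0 to 0.117 in QSZ. At 14 DAI it was at 0.359 to 0.887 in WR04-6 and 0.0795 to 0.166 in QSZ. The accessions did not overlap at 10 and 14 DAI, and edgeR called OsPIP2-8 at neither.

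OsPIP2-5 (LOC_Os07g26660) was added after its annotation in the table was seen, since the locus first listed for it was not found. At 10 DAI it had 35.8 to 73.2 FPKM in WR04-6 and 30.5 to 50.2 in QSZ, with overlap (log2 fold change 0.32 ± 0.61, edgeR, adjusted p = 0.70). It had 42.8, 26.7 and 56.1 FPKM in WR04-6 at 12 DAI and 10.5, 3.09 and 1.47 in QSZ, without overlap (log2 fold change 2.72 ± 0.58, edgeR, adjusted p = 0.0016). At 14 DAI the value was −1.26 ± 0.55 (0.083), and the groups overlapped. OsPIP2-1, OsPIP2-4 and OsPIP2-5 lie close together on chromosome 7, between 15358960 and 15409801. The treatment of reads that fit more than 1 of these copies is not given in the sources used here. How reads were divided among them was not tested.

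**Figure D3:**
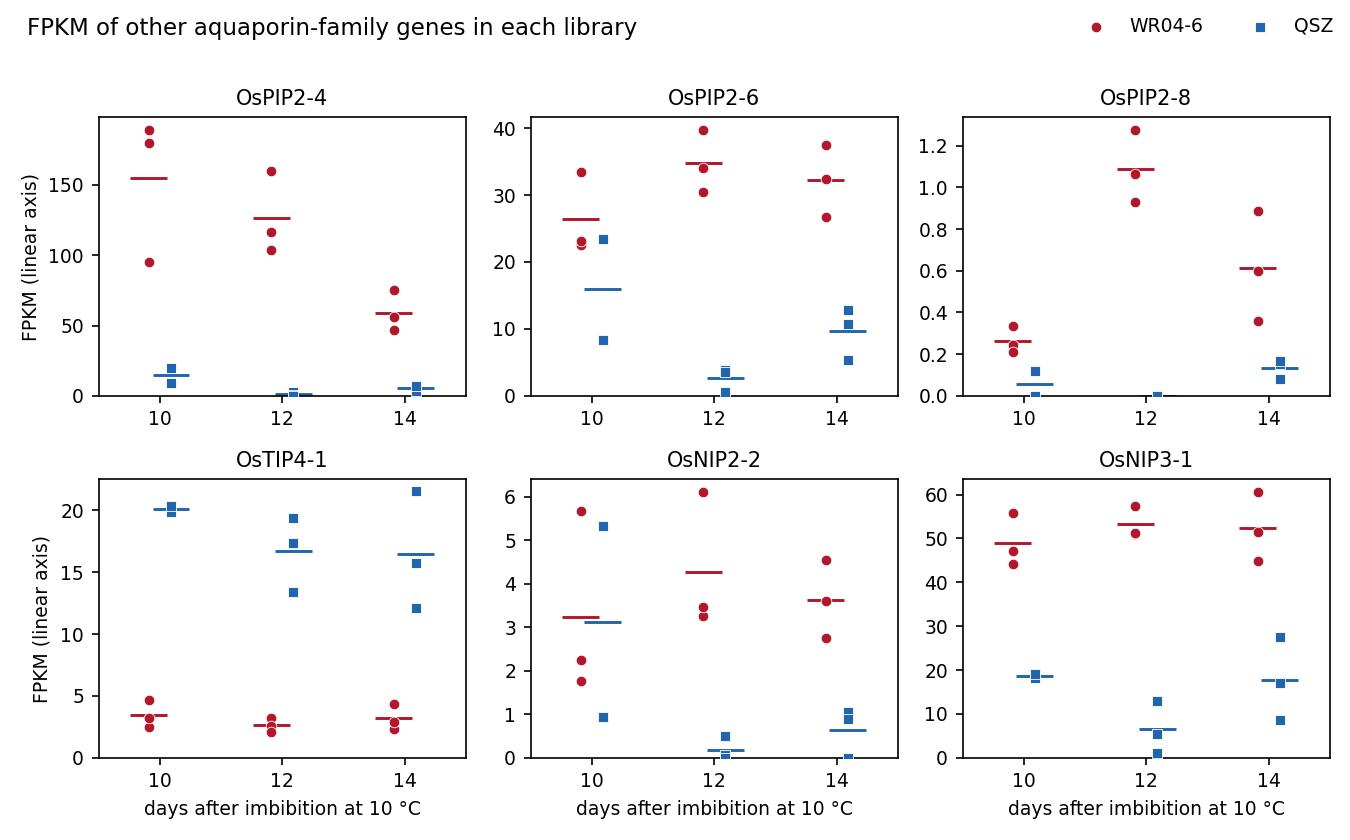
FPKM (linear axis from 0, scaled separately in each panel) of 6 other aquaporin-family genes against days after imbibition at 10 °C, with 1 point per library (circles WR04-6, squares QSZ) and a line at each group mean. OsPIP2-4 and OsNIP3-1 were higher and OsTIP4-1 was lower in every WR04-6 library at 10, 12 and 14 DAI, and OsPIP2-6 and OsNIP2-2 separated at 12 and 14 DAI.

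OsTIP4-1 (LOC_Os05g14240, chromosome 5, 8000545 to 8002994), another tonoplast channel, was at 2.13 to 4.65 FPKM in WR04-6 and 12.1 to 21.5 in QSZ, without overlap. Its log2 fold changes were −2.79 ± 0.31, −3.03 ± 0.30 and −2.65 ± 0.29 (edgeR, adjusted p = 1.1e-05, 2.2e-06 and 8.3e-06). OsTIP5-1, the remaining TIP called at 12 DAI, had a mean of at most 0.167 FPKM in any group.

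Among the NIPs (nodulin 26-like channels, several of which carry metalloids), 4 of 6 were tested. Of these, edgeR called 3 as up-regulated at 12 DAI, against 16.3% of all genes. It called 0 in either direction at 10 and 14 DAI, against 23.6% and 21.3% of all genes. At 10 DAI 0 had an unadjusted p under 0.05 and DESeq2 and limma called 0, and at 14 DAI these counts were 1, 1 and 2. OsNIP3-1 (LOC_Os10g36924), a boron channel of rice, was at 44.1 to 60.5 FPKM in WR04-6 and 1.05 to 27.6 in QSZ, without overlap. Its log2 fold change was 2.69 ± 0.59 at 12 DAI (edgeR, adjusted p = 0.0018), with 1.15 ± 0.64 (0.17) at 10 DAI and 1.28 ± 0.56 (0.081) at 14 DAI. The gene was called at 10 DAI without replicate 3 of QSZ at 12 DAI (0.025), and at 14 DAI without replicate 1 or 3 of QSZ at 12 DAI or replicate 3 of QSZ at 14 DAI (adjusted p down to 0.0072). OsNIP2-2 (LOC_Os06g12310), the silicon channel Lsi6, had 4.17 ± 1.28 at 12 DAI (edgeR, adjusted p = 0.016). It was lost without replicate 2 of QSZ at 12 DAI (adjusted p = 0.059). The other NIP called was OsNIP1-1, named after its values were seen. Of the 2 SIPs (small basic intrinsic proteins, found in internal membranes), edgeR called 0 at each time, against 23.6%, 29.5% and 21.3% of all genes. In edgeR 1, 0 and 2 had an unadjusted p under 0.05, limma called 0, and DESeq2 called 1 at 14 DAI.

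The leaf marker CAB1R, a chlorophyll-binding protein, moved with several of these genes, with log2 fold changes of 0.84, 4.74 and 2.43 (edgeR, adjusted p = 0.50, 0.0012 and 0.039). Of the 5 leaf markers, 3 were up-regulated at 12 DAI and 2 at 14 DAI, while 1 was down-regulated at 10 and at 14 DAI. Their summed FPKM at 12 DAI was 44.9 to 84.4 in WR04-6 and 2.82 to 4.57 in QSZ. CAB1R alone was at 42.3 to 77.5 in WR04-6 and 0.282 to 2.89 in QSZ, so the WR04-6 sum was mostly CAB1R. Their part in the PIP and NIP results was not tested.

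Summed over all 11 PIP and 10 TIP genes, the family was at 1542 to 2096 FPKM in WR04-6 and 2056 to 3377 in QSZ, so the accessions overlapped narrowly. The FPKM total of all genes also differed, at 476318 to 506969 in WR04-6 and 555041 to 593296 in QSZ. As a share of that total the family was at 0.315% to 0.421% and 0.350% to 0.586%, with overlap. The TIP share of the summed PIP and TIP FPKM did not overlap, at 39.8% to 51.2% in WR04-6 and 54.8% to 76.5% in QSZ. In WR04-6 its mean was 43.0% ± 3.46, 48.3% ± 1.41 and 50.3% ± 1.43 at 10, 12 and 14 DAI (SD, n = 3 each). In QSZ it was 54.9% ± 0.102 (SD, n = 2), 75.4% ± 1.06 (n = 3) and 65.1% ± 2.80 (n = 3). The TIP3 pair alone made up 6.59% to 12.1% in WR04-6 and 20.8% to 38.5% in QSZ. These shares sum genes already described and were not tested.

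**Figure D4:**
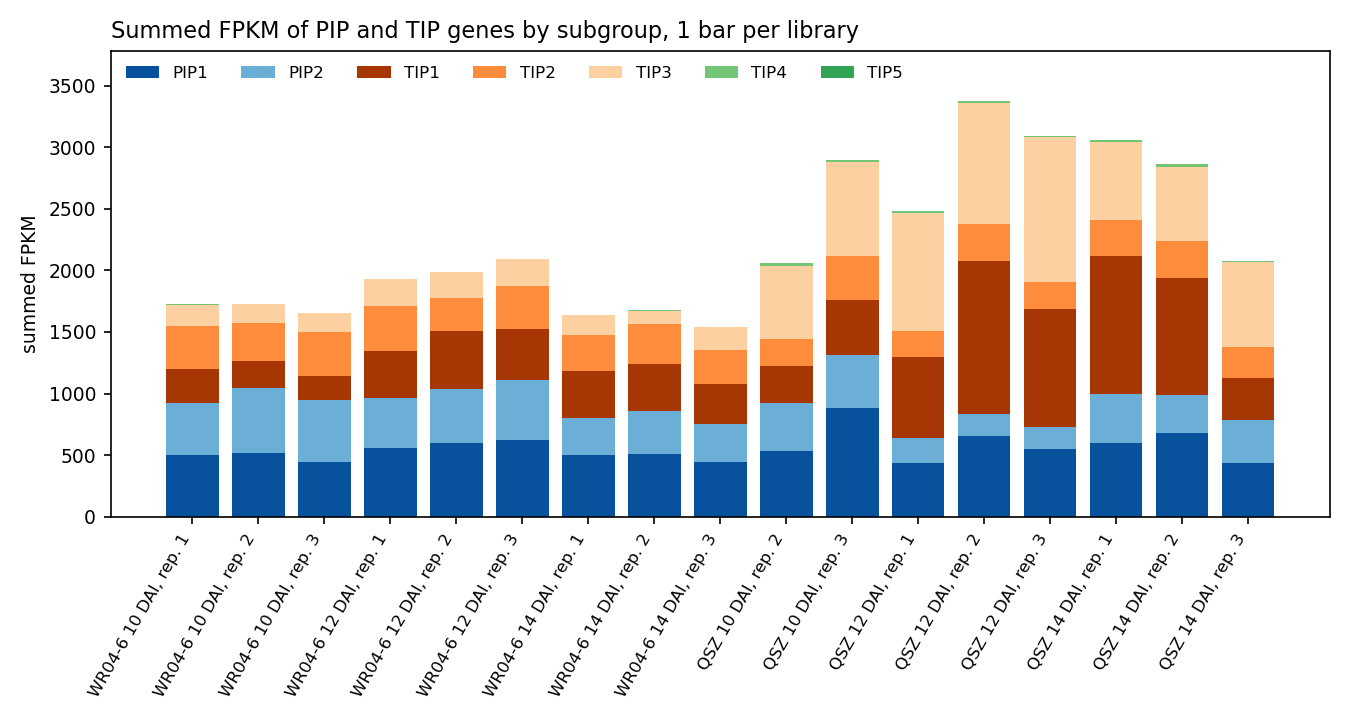
Summed FPKM (y axis, from 0) of the PIP and TIP genes in each of the 17 libraries, stacked by subgroup. The TIP3 segment reaches 593 to 1178 FPKM in QSZ and 110 to 224 in WR04-6. The TIP1 segment is larger in QSZ at 12 DAI and in 2 of 3 QSZ libraries at 14 DAI than in the other libraries.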

How the data were processed

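RNA of germinating seeds was sequenced by the authors as paired reads from a strand-marking library, and 17 libraries were analysed in 6 groups taken from the sample labels. The authors deposited, for each of 23223 MSU v7.0 loci, an FPKM value and an estimated count (a whole number derived from coverage) per library. The labels' processing notes name cutadapt 1.9, HISAT2 2.0.4 and StringTie 1.3.4d, with no role or order given, and whether counting used strand is not given in the sources used here. Among low estimated counts the most frequent value was 4 in all libraries, so 1 fragment counted for about 4. All columns of per-sample values were used. Columns of the authors' own comparisons were not used.

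The 21949 genes that reached an FPKM of 0.1 in 2 or more libraries were tested on the estimated counts with edgeR 4.0.16 (R 4.3.3): TMM scaling, quasi-likelihood test, all 17 libraries in 6 groups with a shared estimate of the spread, and Benjamini-Hochberg adjustment over all genes tested. The interaction test asked whether the accession difference was equal at the 3 times. The scripts were tested on simulated data. Other settings were median-ratio size factors, library totals alone, limma 3.58.1 on log2(FPKM + 0.1), on log2(FPKM + 1) and after quantile normalisation, DESeq2 1.42.0, no filter, counts divided by 4, a replicate block, and leaving out each library.

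The 10 listed loci were all named. Of 22 other MIP genes, at most 6 were named: those called in an accession comparison with a mean FPKM of at least 1 in a group, by the largest absolute log2 fold change. For each TIP3 gene the 3 genes nearest in profile were named. The members and lists were chosen with earlier results of these data known. Gene names follow the aquaporin nomenclature of rice, written with a hyphen, and 3 of the 22 other MIP loci were not found in the table. Depth sets only counting error, and p-values measure the spread between these libraries, which the study calls biological replications.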

Additional observations from a re-analysis of the deposited data

Results flagged for a closer look

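By edgeR's test of the accession by time interaction, with adjustment over all genes tested, the accession difference changed between time points in 2 of the 8 tested members, in 1 of the 16 other MIP genes tested and in OsPIP2-5, which was added later, against 8.98% of all genes tested. In OsPIP1-3 (adjusted p = 0.0159) WR04-6 vs. QSZ gave a log2 fold change of 0.17 at 10 DAI, 3.07 at 12 DAI and 1.71 at 14 DAI, and the interaction passed in all 17 fits without 1 library. In OsPIP2-1 (adjusted p = 0.0184) it was −0.72, 0.05 and −0.83, and it passed in all but the fit without replicate 2 of WR04-6 at 12 DAI (0.060). In OsPIP2-8 (adjusted p = 0.0218), which had at most 1.27 FPKM in any library, and in OsPIP2-5 (adjusted p = 0.0228), it passed in 15 and 16 of the 17 fits. The exceptions were the fits without replicate 2 (OsPIP2-8) and replicate 3 (both genes) of WR04-6 at 12 DAI, with adjusted p up to 0.057 and 0.061. In QSZ at 12 DAI all of them had their lowest group mean.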

How the results depend on the processing

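Across 9 other settings and 17 fits without 1 library, 2581 of 2652 fold changes of single genes kept their side of the DEG rule, 40 lost and 31 gained a call, and no called value changed sign. The sign of an uncalled value changed in 78. Of 338 counts, 314 were within 1.5 times the reported one. After quantile normalisation in limma the members called were 1, 2 and 2 at 10, 12 and 14 DAI (2, 4 and 4 in edgeR), with 1 higher and 1 lower at 12 and at 14 DAI. The cause was not tested. For QSZ from 10 to 14 DAI the count was 0 in limma at both pseudocounts and after quantile normalisation, and 2 in DESeq2. Other MIP genes called at 14 DAI numbered 8 in limma on log2(FPKM + 0.1), 7 after quantile normalisation and 7 in DESeq2, against 4. Without 1 library, members called ranged from 1 to 3 in QSZ from 10 to 12 DAI and from 0 to 1 from 10 to 14 DAI, and interactions from 1 to 2. Other MIP genes called ranged from 2 to 4, 6 to 10 and 3 to 5 at 10, 12 and 14 DAI.

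The replicate numbers did not pair the libraries: deviations from the group means correlated at −0.38 to 0.23 over 40 pairs of the same number and at −0.24 to 0.40 over 80 pairs of different numbers. With the replicate block, members called in QSZ from 10 to 14 DAI were 0 instead of 1, and the other counts of members did not change.

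Depth limits the low genes: OsPIP2-2, OsPIP2-7, OsPIP2-8 and OsTIP5-1 had few fragments in many libraries. QSZ at 10 DAI had 2 libraries, the shallowest of the series and those with the lowest ratios of valid to raw reads in the study's report.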
